A study of Mus musculus with 6 samples.

Results

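The genes described here encode proteins of the red cell surface that carry blood group antigens or transport across the membrane. They are Slc4a1, Aqp1, Rhag, Rhd, Kel, Xk, Gypc, Ermap and Icam4, listed by symbol with earlier results of these data known, and all 9 were present in the files among 17060 genes listed in any library and 12306 genes tested. Lineage-negative BM cells, taken from WT mice, grew in medium with EPO, which drives them toward erythroblasts, and received NUP-17d or its vehicle DMSO for 48 hours. NUP-17d is a small molecule that the study developed as an inhibitor of pleckstrin-2 (Plek2). Each condition had 3 cultures, and the 6 libraries held 20076409 to 20419018 expected counts each (reads estimated per gene). The labels give no strain, age or sex of the mice and do not say whether the cultures of a condition came from separate mice, so p-values measure only the spread between these cultures. Because whole cultures were sequenced, fewer cells of a type and less RNA per cell cannot be told apart.

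The red cell membrane is built around large complexes that span it and hold on to the membrane skeleton beneath. Slc4a1 (band 3) exchanges bicarbonate for chloride and carries the Diego antigens, Rhag and Rhd form the Rh complex, and Kel and Xk are joined to each other as the Kell complex. The genes of these proteins are switched on as erythroblasts mature, and many of them are known targets of the erythroid factor Gata1.

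The DNA just upstream of these genes is shown first because GATA1 binds a short motif, GATAA on either strand. RefSeq windows (GRCm38.p6, the build that mm10 names) were found for 7 of the 9 genes, not for Slc4a1 and Gypc, and the 120 bases before each transcript start are printed 5' to 3' on the strand of the gene, with every GATAA or TTATC in capitals. The table's start lies inside the outer edge of the annotated gene for Rhag, Kel and Ermap. The windows lie at chr17:40811029-40811148 (plus strand, Rhag), chr4:134864416-134864535 (plus, Rhd), chr6:41704326-41704445 (minus, Kel), chr4:119189996-119190115 (minus, Ermap), chr9:21029312-21029431 (plus, Icam4), chrX:9272664-9272783 (plus, Xk) and chr6:55336179-55336298 (plus, Aqp1).
Rhag: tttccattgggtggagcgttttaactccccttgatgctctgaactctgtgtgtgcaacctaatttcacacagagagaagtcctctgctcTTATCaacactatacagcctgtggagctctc
Rhd: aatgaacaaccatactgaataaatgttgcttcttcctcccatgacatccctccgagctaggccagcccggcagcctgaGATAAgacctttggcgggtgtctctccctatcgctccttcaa
Kel: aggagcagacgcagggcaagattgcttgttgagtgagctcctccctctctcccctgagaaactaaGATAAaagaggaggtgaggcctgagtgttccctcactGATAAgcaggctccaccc
Ermap: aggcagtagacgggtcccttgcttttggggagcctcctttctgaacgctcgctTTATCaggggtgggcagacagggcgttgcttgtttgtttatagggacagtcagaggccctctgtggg
Icam4: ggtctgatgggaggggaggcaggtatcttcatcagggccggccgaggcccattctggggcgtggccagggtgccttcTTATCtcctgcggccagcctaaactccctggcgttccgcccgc
Xk: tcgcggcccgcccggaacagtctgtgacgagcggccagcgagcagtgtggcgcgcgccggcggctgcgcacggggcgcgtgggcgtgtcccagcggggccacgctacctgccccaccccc
Aqp1: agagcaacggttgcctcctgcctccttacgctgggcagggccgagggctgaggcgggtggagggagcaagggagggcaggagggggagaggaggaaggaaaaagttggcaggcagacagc

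GATAA or TTATC was present in 5 of these 7 windows, with 2 matches in Kel. The match in Rhag, at position -31 from the transcript start used here, lies inside the annotated gene, which begins at 40811099. Among 32851 windows of 120 bases before RefSeq transcript starts, 10.5% held it. The longer form AGATAA or TTATCT, which contains the shorter one, was present in Rhd, Kel and Icam4 and in 4.36% of all windows. A second motif, CACCC or GGGTG, which Klf1 can bind, was present in 7 of 7 windows and in 31.7% of all windows. Xk and Aqp1, whose windows held no GATAA, also held none in the full 300 bases of the table, where 25.4% of all promoters did. These matches describe letters in a window. They do not show binding, and binding was not measured here.

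The culture type was checked against marker genes. Hemoglobin transcripts made up 19.1% ± 1.04 of all counts in DMSO cultures and 12.2% ± 0.723 in NUP-17d cultures (SD, n = 3). Counts were therefore scaled by TMM, which sets library factors so that most genes do not differ on balance, and are given as CPM of the scaled library (counts divided by its size, times 1000000). The factors were 0.887 to 0.930 in DMSO and 1.08 to 1.11 in NUP-17d cultures. All 7 erythroid markers were present and lower with NUP-17d, with a summed level of 99990 to 113700 CPM in DMSO and 54790 to 62970 CPM in NUP-17d cultures. Most of this sum was Hba-a1 and Hbb-bt, at means of 76360 and 21890 CPM in DMSO. With TMM, Alas2 was at 59.1%, Tfrc at 69.4%, Epor at 76.7%, Gata1 at 79.3% and Klf1 at 84.7% of DMSO. With library totals only 5 of the 7 were called lower, and Gata1 and Klf1 were not called. Summed neutrophil markers were at 3942 to 4109 and 4021 to 4301 CPM, summed macrophage markers at 624.0 to 682.2 and 674.8 to 743.1 CPM, summed megakaryocyte markers at 448.7 to 495.9 and 519.3 to 539.0 CPM, and summed early progenitor markers at 491.9 to 496.5 and 497.8 to 514.0 CPM. Summed mast cell or basophil markers were at 208.5 to 225.5 and 186.2 to 191.5 CPM, and lymphoid markers at 21.51 to 24.59 and 19.25 to 19.53 CPM. With TMM, 1 of 10 neutrophil markers was called lower and 2 higher, as were 2 and 2 of 8 macrophage, 1 and 1 of 6 early progenitor, and 2 and 1 of 5 mast cell or basophil markers, while 2 of 5 lymphoid markers were called lower and 5 of 7 megakaryocyte markers higher. Of all 12306 genes, 18.9% were called lower and 16.4% higher with TMM, and 5.34% and 68.7% with totals only. With totals only, 8 of 10 neutrophil, 5 of 8 macrophage, 5 of 6 early progenitor and 7 of 7 megakaryocyte markers were called higher. Also higher were 2 of 5 mast cell or basophil markers, and 1 of 5 lymphoid markers was lower. The part of these cells in the results below was not tested.

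The red cell surface genes were lower in NUP-17d cultures. With TMM scaling 9 of 9 fell, whereas with library totals only 7 fell, Xk rose and Aqp1 was not called (edgeR quasi-likelihood test, Benjamini-Hochberg adjusted p under 0.05). Across all 12306 genes, 18.9% were called lower and 16.4% higher with TMM, against 5.34% lower and 68.7% higher with totals only. The CPM values of the treatments did not overlap for 9 of 9 genes, which was so, in the same direction, for 23.2% of all genes. The median log2 fold change of the 9 genes was -0.53, beside 0.014 for all tested genes. With totals only these medians were -0.26 and 0.28. Together the 9 genes took 1.37% ± 0.0279 of all counts in DMSO and 1.04% ± 0.0251 in NUP-17d cultures (SD, n = 3), values that do not depend on TMM. Most of this share was Slc4a1 alone, at 1.11% in DMSO and 0.819% in NUP-17d cultures.

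**Figure D1:**
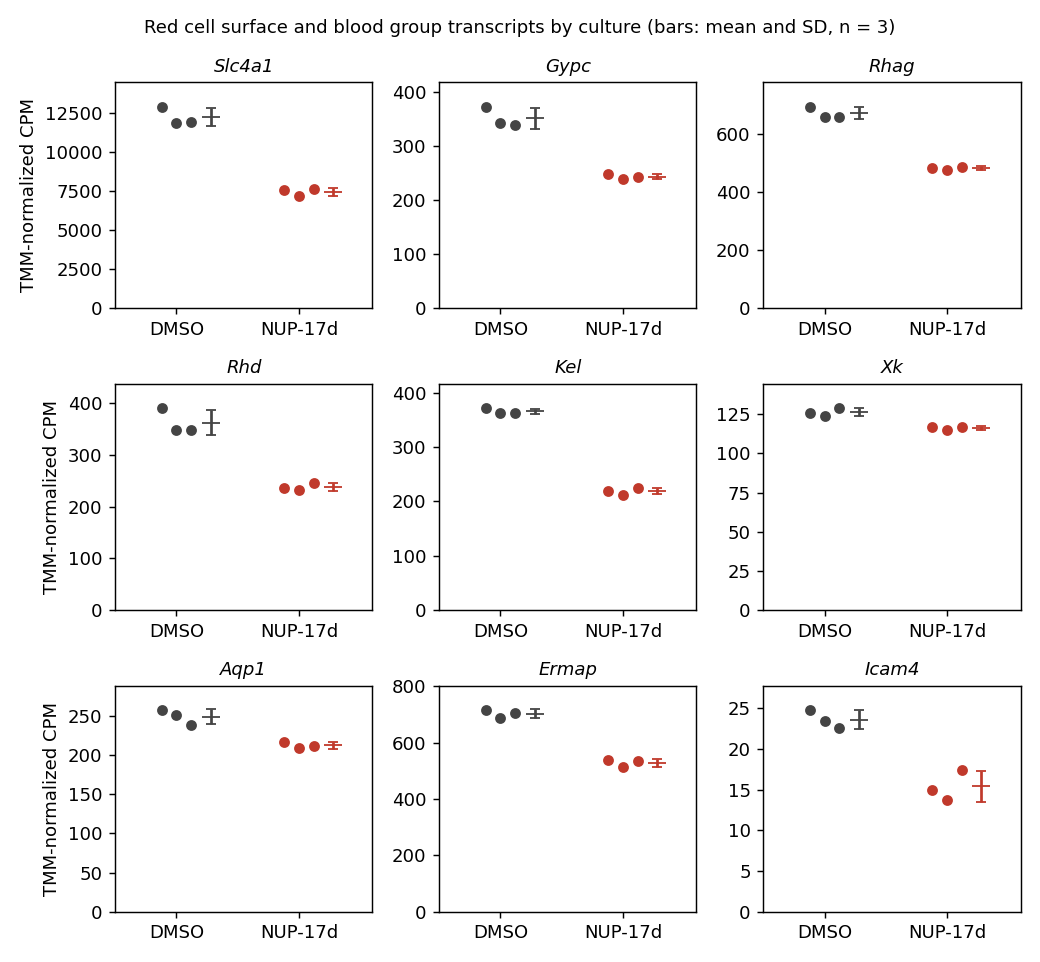
TMM-normalized CPM (vertical axes, from 0) of the 9 genes in each DMSO and NUP-17d culture (points), with the mean and SD of 3 cultures beside them. Every NUP-17d point lies below every DMSO point on this scale, by a wide margin for Slc4a1 and Kel and by a narrow one for Xk; on FPKM values, which are scaled to library totals, Xk lay higher with NUP-17d and Aqp1 overlapped.

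Slc4a1 was the most abundant of these transcripts. The gene (Entrez 20533, chromosome 11, 102348820 to 102365281) was at 12900, 11850 and 11930 CPM in DMSO cultures 1, 2 and 3 and at 7588, 7178 and 7644 CPM in NUP-17d cultures 1, 2 and 3. All NUP-17d values were far below the lowest DMSO value. The log2 fold change was -0.71 ± 0.0432 (SE, adjusted p = 4.43e-13), a level 38.9% lower, and it was -0.44 with totals only. In DMSO cultures Slc4a1 alone gave 1.11% of all counts and ranked 14 of all genes by FPKM, a measure per transcript length. With NUP-17d it gave 0.819% and ranked 15.

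Aqp1, the water channel that carries the Colton antigens, changed far less. The gene (Entrez 11826, chromosome 6, 55336299 to 55348555) was at 258.2, 251.0 and 238.7 CPM in DMSO and at 217.0, 208.7 and 212.4 CPM in NUP-17d cultures. These ranges lay apart, with the lowest DMSO culture close to the highest NUP-17d culture. The log2 fold change was -0.23 ± 0.0362 (SE, adjusted p = 1.34e-05) with TMM and 0.039 with totals only, where the 95% interval ran from -0.036 to 0.11 (adjusted p = 0.332). The direction of the Aqp1 difference therefore rests on the scaling.

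Both genes of the Rh complex fell under both scalings. Rhag, an ammonia and gas channel that the Rh proteins need to reach the membrane (Entrez 19743, chromosome 17, 40811099 to 40844094), was at 692.9, 658.6 and 656.2 CPM in DMSO and at 482.5, 473.5 and 486.8 CPM in NUP-17d cultures. Rhd, the mouse gene of the Rh antigen protein (Entrez 19746, chromosome 4, 134864536 to 134896172), was at 390.8, 348.5 and 348.4 CPM and at 236.4, 231.6 and 246.9 CPM. Neither gene overlapped between the treatments, and DMSO culture 1 was the highest for both. Rhag fell by 0.48 ± 0.0346 (adjusted p = 1.52e-11) and Rhd by 0.61 ± 0.0412 (adjusted p = 4.37e-12) on the log2 scale (SE), and with totals only the log2 fold changes were -0.21 and -0.34. The ratio of Rhag to Rhd counts within a culture, which no scaling can change, was 1.77, 1.89 and 1.88 in DMSO and 2.04, 2.05 and 1.97 in NUP-17d cultures. The ratios did not overlap, and the exact permutation p of 0.1 is the smallest that 3 cultures against 3 can give (two-sided).

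The genes of the Kell complex had the largest and the smallest fall of the 9 with TMM scaling, while with totals only Xk rose. Kel, a zinc endopeptidase that carries the Kell antigens (Entrez 23925, chromosome 6, 41686329 to 41704334), was at 371.9, 363.9 and 362.9 CPM in DMSO and at 219.4, 212.8 and 224.1 CPM in NUP-17d cultures. Its level was 40.3% lower, with a log2 fold change of -0.74 ± 0.0343 (SE, adjusted p = 2.59e-15), or -0.48 with totals only. Xk, the membrane protein to which Kell is bound (Entrez 22439, chromosome X, 9272784 to 9313245), was at 126.0, 124.1 and 128.9 CPM in DMSO and at 117.1, 114.8 and 116.9 CPM in NUP-17d cultures. The Xk groups lay apart by a small step, with a level 7.96% lower.

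The log2 fold change of Xk was -0.12 ± 0.0358 with TMM (SE, adjusted p = 0.0104) and turned to 0.15 with totals only (adjusted p = 0.00185). Without DMSO culture 3 the Xk call was lost (adjusted p = 0.0542 by edgeR, log2 fold change -0.11). The ratio of Kel to Xk counts was 2.95, 2.93 and 2.82 in DMSO and 1.87, 1.85 and 1.92 in NUP-17d cultures. On the log2 scale it went from 1.54 ± 0.0368 to 0.912 ± 0.0245 (SD, n = 3, exact permutation p = 0.1, adjusted p = 0.129 over 36 pairs), the widest shift of any pair of these 9 genes. This ratio is the same under every scaling.

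**Figure D2:**
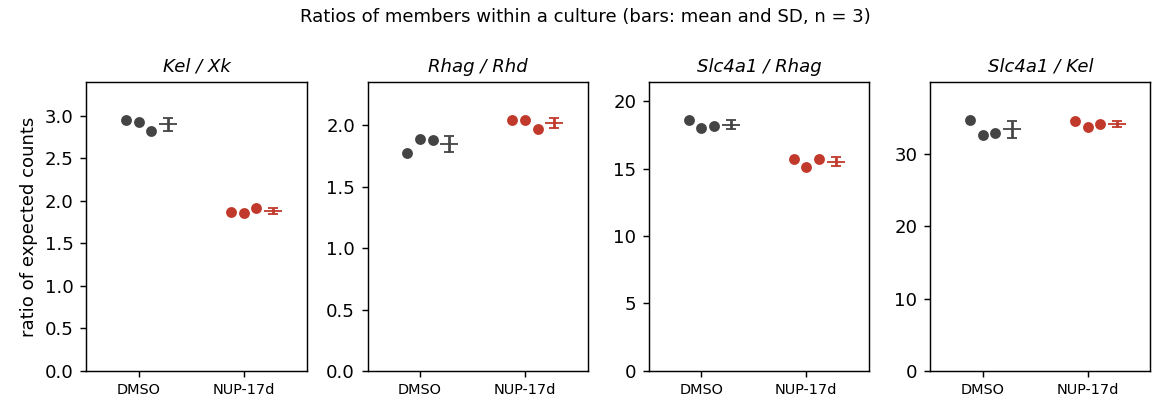
Ratios of expected counts between pairs of the genes (vertical axes, from 0) in each DMSO and NUP-17d culture (points), with mean and SD of 3 cultures. Kel to Xk lies at 2.82 to 2.95 in DMSO and 1.85 to 1.92 in NUP-17d cultures, Rhag to Rhd and Slc4a1 to Rhag also do not overlap, and Slc4a1 to Kel overlaps.

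The remaining members are single-pass surface proteins. Gypc, the glycophorin that carries the Gerbich antigens and ties the membrane to the skeleton (Entrez 71683), was at 372.6, 341.6 and 338.1 CPM in DMSO and at 248.0, 238.7 and 243.0 CPM in NUP-17d cultures. Ermap, an immunoglobulin superfamily protein that carries the Scianna antigens (Entrez 27028, chromosome 4, 119175457 to 119190013), was at 717.1, 687.2 and 706.3 CPM and at 538.9, 512.1 and 533.5 CPM. For both genes every NUP-17d culture was below every DMSO culture. Gypc fell by 0.53 ± 0.0380 (adjusted p = 1.26e-11) and Ermap by 0.41 ± 0.0347 (adjusted p = 2.69e-10) on the log2 scale (SE). With totals only the log2 fold changes were -0.26 and -0.15.

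Icam4, the Landsteiner-Wiener glycoprotein and a ligand of integrins (Entrez 78369, chromosome 9, 21029432 to 21030596), was measured least precisely. It had 449, 445 and 419 expected counts in DMSO and 332, 307 and 381 in NUP-17d cultures, or 24.8, 23.5 and 22.5 CPM and 15.0, 13.8 and 17.5 CPM. The spread of its CPM in NUP-17d cultures was 12.2% of the mean, beside 5.42% that counting alone gives, and culture 3 was the highest. The groups still lay apart, and Icam4 fell by 0.61 ± 0.0737 on the log2 scale (SE, adjusted p = 1.82e-07), and under library totals alone its value was -0.35. Across the 9 genes the other spreads were 1.08% to 6.74% of the mean.

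**Figure D3:**
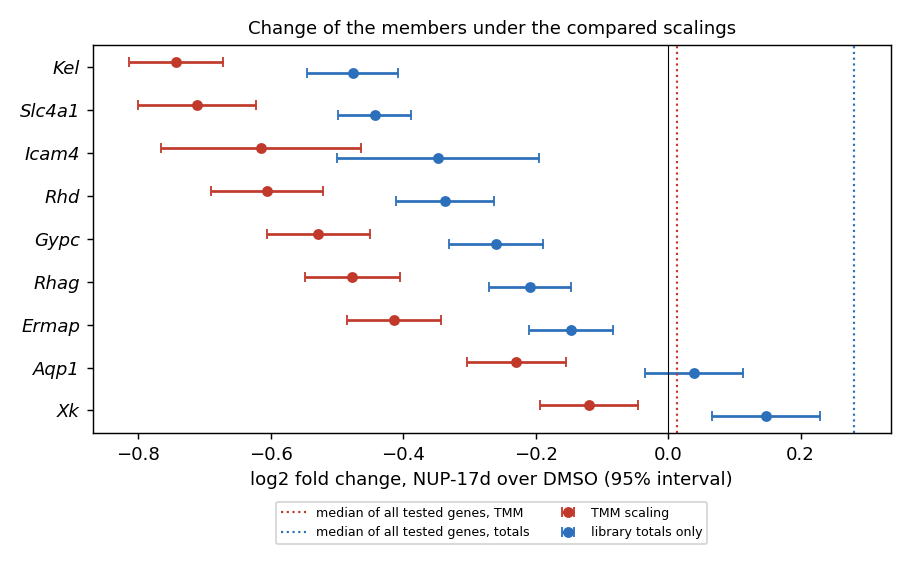
Log2 fold change of NUP-17d over DMSO (horizontal axis) with its 95% interval from edgeR for each gene, under TMM scaling and under library totals only, with the median of all tested genes as dotted lines. The order of the genes is the same under both scalings because the values shift together by nearly the same amount, and Aqp1 and Xk pass 0 with totals only.

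The order of the fold changes hardly depended on the scaling, since other library factors shift every gene by nearly the same amount (median shift 0.267). The kept order is therefore not a check of the results. Counted from the most lowered of 12306 genes, Kel ranked 209 with TMM and 208 with totals only, Slc4a1 235 and 237, and Xk 3084 and 3089. Of the 36 pairs of these genes, 28 had count ratios that did not overlap between the treatments, which was so for 44.2% of all pairs of 12287 tested genes with a count in every library. The 36 pairs share genes and are not independent. The ratio of Slc4a1 to Kel counts overlapped, at 32.6 to 34.7 in DMSO and 33.7 to 34.6 in NUP-17d cultures, with a log2 difference of 0.033 (exact permutation p = 0.4). Every non-overlapping pair had an exact p of 0.1, adjusted to 0.129 over the 36 pairs, so no pair passed the threshold. Xk and Aqp1, the genes of the 7 upstream windows without GATAA, had the smallest decreases with TMM, a coincidence seen after the values were known and not tested.

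Set against other transcripts of the same cultures, the direction depended on the reference. As a percentage of hemoglobin counts the 9 genes together were at 6.93, 7.45 and 7.19 in DMSO and at 9.04, 8.56 and 8.05 in NUP-17d cultures, so their share relative to hemoglobin was higher with NUP-17d (log2 difference 0.249). Most of the sum of the 9 genes was Slc4a1, at 5.6, 6.0 and 5.8 in DMSO and 7.1, 6.7 and 6.3 in NUP-17d cultures. Each of the 9 genes was higher relative to hemoglobin, from 0.168 for Kel to 0.792 for Xk on the log2 scale. The hemoglobin genes were themselves among the most lowered of all tested genes. With TMM, only 1.09% of tested genes had a lower log2 fold change than Hba-a1, and 0.91% than Hbb-bt. Most genes would therefore be higher against this reference, so the rise does not set the 9 genes apart. Relative to Gata1 plus Klf1 the sum was lower (log2 difference -0.373), although Xk was higher by 0.169 and Aqp1 overlapped. Each non-overlapping difference had an exact permutation p of 0.1, the smallest possible with n = 3 per group.

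Levels of different genes were compared by FPKM. In DMSO cultures Slc4a1 was at 2387 ± 54.4 FPKM (SD, n = 3), followed by Rhag at 260.7 ± 2.66, Rhd at 215.5 ± 9.19, Gypc at 144.2 ± 4.43, Ermap at 137.8 ± 1.46 and Kel at 130.8 ± 1.79. Aqp1 was at 81.3 ± 2.61, Icam4 at 24.1 ± 0.802 and Xk at 22.3 ± 0.657 FPKM. No neighbours in this order overlapped. In NUP-17d cultures Slc4a1 was at 1761 ± 47.1, Rhag at 226.2 ± 1.72 and Rhd at 171.0 ± 3.49 FPKM. Ermap at 124.8 ± 2.96 and Gypc at 120.8 ± 2.60 overlapped, Kel was at 94.3 ± 1.48 and Aqp1 at 83.8 ± 1.85, and Xk at 24.8 ± 0.265 stood above Icam4 at 19.0 ± 2.08. Xk and Icam4 thus changed places between the treatments, but in DMSO they lay close together. The lowest Icam4 culture there was at 23.15 FPKM and the highest Xk culture at 22.96 FPKM.

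Genes of the proteins that hold these complexes to the skeleton, or sit in them, mostly fell too. Over all 12306 genes, 18.9% were called lower and 16.4% higher with TMM, the shares to set beside this and the following lists. With totals only they were 5.34% and 68.7%. Of 14 partner and linker genes, 12 fell and 2 were not called with TMM (median log2 fold change -0.43), and with totals only 10 fell and 2 rose. Those that fell included Epb42 (log2 fold change -0.70, adjusted p = 3.23e-14) and Epb41 (-0.67, adjusted p = 2.22e-13), skeleton proteins that bind band 3 and Gypc respectively, and Dmtn, an actin-binding skeleton protein (-0.66, adjusted p = 5.48e-13). The genes not called were the glucose transporter Slc2a1 (0.043, adjusted p = 0.419) and Vps13a (-0.072, adjusted p = 0.300), a lipid transfer protein that binds Xk. Slc2a1 and Vps13a were named after their values were seen.

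Other carriers and enzymes of blood group antigens moved less uniformly. Of 28 tested genes, 12 fell, 5 rose and 11 were not called with TMM (median -0.12), against 6 lower and 14 higher with totals only. Prnp, the prion protein (-0.65, adjusted p = 3.23e-14), Art4, which carries the Dombrock antigens (-0.64, adjusted p = 5.98e-13), and Bsg, which carries the Ok antigen (-0.57, adjusted p = 4.49e-12), fell. Ache, the acetylcholinesterase of the Cartwright antigens, rose by 0.27 on the log2 scale (adjusted p = 7.81e-05), as did the drug pump Abcc1 (0.15, adjusted p = 0.00432) and Slc44a2 (0.15, adjusted p = 0.00536). The Slc44a2 call was lost without DMSO culture 3 (adjusted p = 0.0701).

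**Figure D4:**
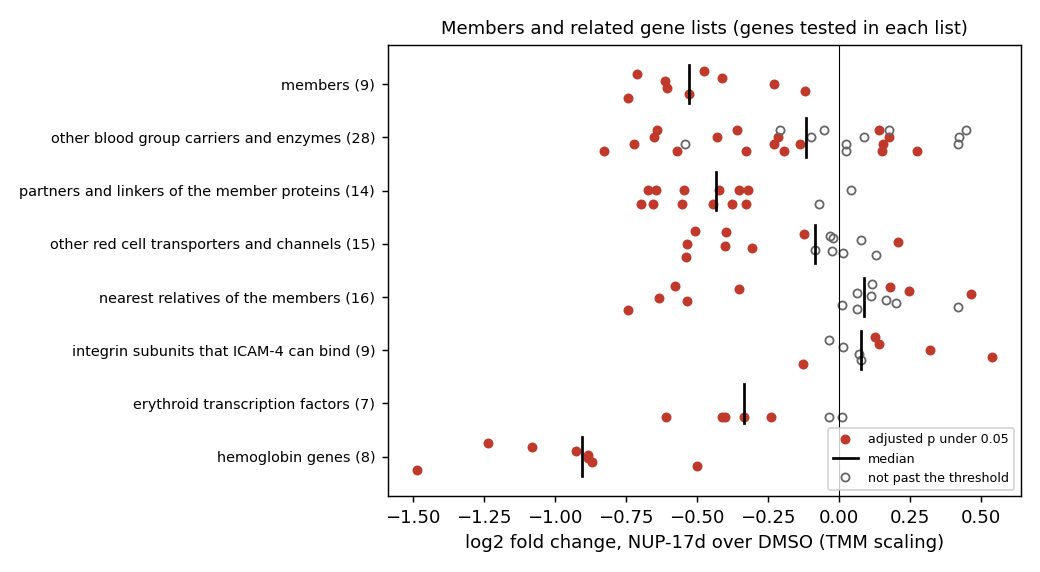
Log2 fold change of NUP-17d over DMSO with TMM scaling (horizontal axis) for each tested gene of the 9 red cell surface genes and of 7 related lists (rows), filled where the adjusted p was under 0.05, with a line at each list's median. Partner and linker genes and hemoglobin genes lie mostly below 0, and the relatives and the integrin subunits lie around 0; with totals only every list's median is higher by about 0.27.

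Of 15 other red cell transporters and channels, 7 fell, 1 rose and 7 were not called (median -0.086), against 5 lower and 9 higher with totals only. The glycine transporter Slc6a9 (-0.54, adjusted p = 4.54e-12), the glycerol channel Aqp9 (-0.53, adjusted p = 8.49e-12), the Gardos channel Kcnn4 (-0.51, adjusted p = 1.26e-10) and the lactate carrier Slc16a1 (-0.40, adjusted p = 1.18e-09) fell. The potassium chloride cotransporter Slc12a7 rose by 0.21 on the log2 scale (adjusted p = 0.0478), a call lost on leaving out any 1 culture but NUP-17d culture 3 (adjusted p = 0.0577 to 0.160).

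The nearest relatives of the members showed no common direction. Of 16 tested, 5 fell, 3 rose and 8 were not called (median 0.088), against 3 lower and 8 higher with totals only. Among all tested genes, 18.9% fell and 16.4% rose with TMM, and 68.7% rose with totals only. Mmel1, a peptidase of the same family as Kel (-0.58, adjusted p = 2.67e-12), Aqp9, Btnl10 (-0.63, adjusted p = 2.41e-08) and Icam1 (-0.35, adjusted p = 0.000190) fell, and Icam1 was not called with totals only (-0.085, adjusted p = 0.300). Slc4a2, the anion exchanger of most other cells (0.18, adjusted p = 0.00559), Xkr8, a scramblase related to Xk (0.46, adjusted p = 0.00703), and Btn1a1 (0.25, adjusted p = 0.0210) rose. The Btn1a1 call was lost without DMSO culture 2 (adjusted p = 0.0805) and without NUP-17d culture 1 (0.0525) or 2 (0.0762). Slc4a2 was at 37.2, 36.1 and 36.4 CPM in DMSO and at 39.0, 42.6 and 42.6 CPM in NUP-17d cultures, opposite in direction to Slc4a1.

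Of 9 integrin subunits that ICAM-4 can bind, 1 fell, 4 rose and 4 were not called with TMM (median 0.076). All 9 rose with totals only, as did 68.7% of all tested genes. Itgb5 (0.54, adjusted p = 6.42e-10), Itgb3 (0.32, adjusted p = 4.16e-07), Itgb2 (0.14, adjusted p = 0.00415) and Itga2b (0.13, adjusted p = 0.00790) rose, and Itgal fell by 0.13 on the log2 scale (adjusted p = 0.0104) with TMM and rose with totals only. The Itgal call was lost without DMSO culture 3 (adjusted p = 0.0786) or NUP-17d culture 3 (adjusted p = 0.0556), and that of Itga2b without NUP-17d culture 1 (adjusted p = 0.0502). Itga2b is also a megakaryocyte marker, and it is itself among the 5 of 7 such markers that rose with TMM. Whether megakaryocytes bear on the integrin values was not tested.

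Of 7 erythroid transcription factors, 5 fell and 2 were not called (median -0.33), against 3 lower and 2 higher with totals only. Nfe2 (-0.61, adjusted p = 3.21e-13), Tal1 (-0.41, adjusted p = 4.82e-10), Lmo2 (-0.40, adjusted p = 1.28e-09) and Gata1 (-0.33, adjusted p = 1.65e-08) fell. Gata1 was not called with totals only (-0.067, adjusted p = 0.0842). All 8 tested hemoglobin genes fell under both scalings, and their median with TMM was -0.90.

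The genes whose pattern over the 6 cultures lay closest to the mean pattern of the 9 genes were found by the root mean square difference of centred log2 CPM, among 9747 genes that averaged 100 counts or more. They were Ints6l (0.00959), Atg9a (0.0155), Rnf123 (0.0158), Tspan33 (0.0164) and Tmem131l (0.0182). Tspan33, a tetraspanin, was at 353.7 ± 12.9 CPM in DMSO and at 254.9 ± 5.67 CPM in NUP-17d cultures (SD, n = 3). These patterns are mostly the step between the treatments, which many genes share.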

How the data were processed

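RNA was measured in 3 DMSO and 3 NUP-17d cultures, grouped by the labels. The authors deposited 1 table per culture with an expected count per gene (estimated reads, not normalized) and its FPKM (scaled by transcript length and library total). The aligner and counter are not given in the sources used here. Whether strand was used in counting is not given either. The build is mm10 per the submitters' processing notes. Genes missing from a table were taken as 0. Between 27.8% and 28.5% of the expected counts were not whole, and among the 9 genes this held for Rhag, Xk and Ermap. Gene coordinates are from RefSeq, GRCm38.p6.

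Expected counts were rounded and tested with edgeR 4.0.16 in R 4.3.3 (filterByExpr, TMM, quasi-likelihood test, Benjamini-Hochberg over 12306 genes, threshold 0.05). The biological coefficient of variation was 2.95%. Ratios were tested by two-sided exact permutation. The alternatives were DESeq2 1.42.0, limma 3.58.1 on log2 FPKM values with a pseudocount of 1 or 0.1 (mean FPKM of 1 or more), other scalings, no count filter, a minimum log2 fold change of 0.5, a replicate block and leaving out each culture.

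The 9 genes and all lists were chosen with earlier results of these data known. In each list the 4 tested genes with the lowest p were named, with up to 3 called against the list's main direction, and the 5 genes of closest pattern. A few of the genes so named are left out of the text. Beyond these, other genes were named after their values were seen. Of the list symbols, Abo, Ecel1, Xkr4, Xkr7, Xkr9 and Trbc2 had no row and Ca2 was matched as Car2. RefSeq promoter entries matched 7 of the 9 genes by Entrez identifier.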

Additional observations from a re-analysis of the deposited data

How the results depend on the processing

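All 9 genes were called lower with DESeq2, RLE scaling (the size factors of DESeq2), hemoglobin genes removed, no count filter and the replicate block (9 genes), 7 with library totals only and with limma on log2(FPKM + 0.1) or log2(FPKM + 1), and 5 with a minimum absolute log2 fold change of 0.5. Leaving out 1 culture gave 8 to 9, with Xk lost without DMSO replicate 3. Under the minimum fold change Rhag, Xk, Aqp1 and Ermap were not called. Of 126 values of single genes under all the other alternatives, 119 kept direction and call, 1 lost its call and 6 changed direction. Those 6 were Xk (0.15 with totals, 0.15 with limma and either pseudocount) and Aqp1 (0.039 with totals, 0.043 with limma on log2(FPKM + 0.1) and 0.042 on log2(FPKM + 1)). These settings use library totals, which shift the median of all genes by 0.267, and the 9 genes shift with it.

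All genes changed numbered 4346, against 9115 with totals, 8480 and 8494 with limma (+ 0.1 and + 1), 750 with the minimum fold change, 4543 with the replicate block and 3713 to 4008 without 1 culture. Genes lower numbered 2327, against 657, 600, 599 and 470 in that order of the first 4 settings, 2422 with the block and 2035 to 2181 without 1 culture. Other blood group genes lower numbered 12, against 6, 6, 6 and 5 (9 to 12 without 1 culture). Relatives lower numbered 5, against 3 with totals and 3 with either limma fit (4 to 5). Integrin subunits lower numbered 1, against 0 in each of the 4 settings (0 to 1, with 0 without DMSO replicate 3 or NUP-17d replicate 3). Partner genes numbered 12 and transporters 7, against 6 and 3 with the minimum fold change (12 to 12 and 7 to 7 without 1 culture). Same-numbered cultures deviated together with r of 0.00461 to 0.0657, so the numbers are not shown to pair cultures. Low counts limit Icam4 most.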
